A study of Mus musculus with 2 samples.

Results

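Krüppel-like factors are zinc-finger transcription factors that bind GC-rich and CACCC-type DNA, and 8 of them are described here in mouse lung cells: Klf2, Klf3, Klf4, Klf6, Klf7, Klf9, Klf10 and Klf13. They were taken by gene symbol from the 27998 genes of the deposited feature lists, which hold 17 numbered Klf genes, and all 8 were found. The libraries came from a mouse model of hereditary hemorrhagic telangiectasia type 2, a disease of malformed vessels known for mutations of ACVRL1, the endothelial receptor for circulating bone morphogenetic proteins. Lungs of C57BL/6J mice aged 10 to 12 weeks were dissociated with dispase, cells positive for VE-cadherin and negative for CD45 were sorted, and 1 wild-type (WT) and 1 knockout (KO) library were made with 10x Genomics 3′ version 3 chemistry. Both libraries share the strain, age range, digestion and sort. The deleted gene, the promoter or Cre used and the number of animals per library are not given in the sources used here.

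Klf2 and Klf4 are best known in endothelium as the factors that laminar blood flow switches on, through the MEK5, ERK5 and MEF2 cascade, and their products lower clotting, inflammatory adhesion and contraction of the vessel wall. The CCM protein complex holds this cascade down. Klf6 is induced by vessel injury. Klf3 is a repressor that recruits CtBP proteins, Klf9 is a target of glucocorticoid hormone, Klf10 was found as an early gene of TGF-beta treatment, and Klf13 is a relative of Klf9 that can bind the Sin3a corepressor. Klf7 is a broadly expressed relative of Klf6.

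In the GENCODE annotation of GRCm38 the genes lie on separate chromosomes: Klf2 on chr8:72319033-72321656 (plus strand), Klf3 on chr5:64803388-64832901 (plus), Klf4 on chr4:55527143-55532466 (minus), Klf6 on chr13:5861482-5870394 (plus), Klf7 on chr1:64029447-64122282 (minus), Klf9 on chr19:23141226-23168134 (plus), Klf10 on chr15:38291463-38300706 (minus) and Klf13 on chr7:63886351-63938915 (minus). RefSeq promoter windows, from 250 bases before the transcription start to 50 bases after it, on GRCm38.p6, were at hand for 7 of the 8; Klf10 was not among them. RefSeq starts can differ by some bases from the GENCODE starts above. The windows of Klf2 and Klf4 are shown because these are the flow genes tied to MEF2. Capitals mark the match to CTA and TAG separated by any 4 bases, a simplified pattern searched for MEF2 sites. Other forms of the site were not searched, and a match need not be a MEF2 site. Each window runs 5′ to 3′ on the strand of its gene.
Klf2, chr8:72318812-72319111, plus strand: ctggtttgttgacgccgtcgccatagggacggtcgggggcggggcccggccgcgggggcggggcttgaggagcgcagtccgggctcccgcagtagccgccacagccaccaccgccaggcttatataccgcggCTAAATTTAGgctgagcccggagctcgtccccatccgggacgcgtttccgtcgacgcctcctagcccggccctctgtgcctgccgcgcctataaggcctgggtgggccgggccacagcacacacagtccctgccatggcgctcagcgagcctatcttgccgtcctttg
Klf4, chr4:55532426-55532725, minus strand: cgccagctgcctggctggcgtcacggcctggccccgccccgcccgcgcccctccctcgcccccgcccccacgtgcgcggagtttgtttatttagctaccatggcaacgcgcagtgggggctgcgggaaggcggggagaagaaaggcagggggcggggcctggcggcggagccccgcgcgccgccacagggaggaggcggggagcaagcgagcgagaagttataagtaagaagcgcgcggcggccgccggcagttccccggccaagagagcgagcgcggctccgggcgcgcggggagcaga
The Klf2 window held 1 match, CTAAATTTAG, which begins 118 bases before the start. None of the other 6 windows held a match on either strand, while one was present in 3.69% of 32851 RefSeq promoter windows of the same length. GC boxes (GGGCGG, either strand) numbered 6 for Klf3, 4 for Klf4, 3 for Klf13, 2 for Klf2 and 1 each for Klf6 and Klf7, and 35.7% of all windows held at least 1. CACCC boxes (CCACCC) numbered 3 each for Klf3 and Klf7 and 1 each for Klf2 and Klf13, against 31.5% of all windows with at least 1. No window of these genes held TATAAA, which 13.6% of all windows did. GC content ran from 58.3% in Klf7 to 76.7% in Klf3. These are matches of letters, not measured binding sites.

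Of 3482 WT and 2196 KO barcodes, holding 25667220 and 17864581 UMIs, 2708 and 1314 cells passed the filters, with a median of 5423 and 8654 UMIs. The libraries shared 12 barcode sequences, of which 6 were kept in both. Cells were clustered without the Klf genes and the genes of the lists set around them, and were named by markers. Acvrl1 and the markers outside those lists were not left out on that ground. Their levels by class are therefore not independent of the clustering. The endothelial classes were general capillary (gCap-like, led by Aplnr and Kit; 777 WT and 215 KO cells), aerocyte capillary (aCap-like, Car4 and Ednrb; 400 and 72), an Esm1-led class (176 and 35), arterial-like (60 and 20), venous-like (53 and 14) and a class seen almost only in the KO library (125 KO and 2 WT cells), called the KO-only endothelial cluster. A lymphatic-like class of 3 WT and 7 KO cells was too small for the comparisons by class. The sort was for endothelium, yet alveolar type 2 (AT2-like) cells, the surfactant-making epithelium, made up 29.9% of WT and 44.6% of KO cells. Fibroblast-like and smooth muscle-like cells were present as well. WT cells carried Xist and almost no Y-linked transcripts (14 cells with any), except in the leukocyte-like class. There 9 WT cells had Y-linked transcripts only, 2 had both and 5 had Xist only. The KO library held cells of both kinds, so sex and genotype cannot be told apart. KO cells with Xist only numbered 3 of 215 gCap-like, 7 of 72 aCap-like and 84 of 586 AT2-like cells. They were not compared with WT cells on their own.

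Levels are given as CPM, the UMIs of a gene per 1000000 UMIs of all cells of a class in a library, with exact 95% Poisson intervals. With 1 library per genotype there is no replicate, no test was possible, and the intervals cover counting error only. The 3′ chemistry counts transcript ends, so a level does not scale with transcript length. A gene is said to be called higher or lower when the ratio of 2 levels was at least 1.5-fold and their intervals did not overlap; only genes that averaged 10 CPM or more over both sides were eligible. The percentage of all such genes called the same way is printed beside each comparison as its background.

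Klf2 was the most abundant of the 8 genes in all 6 blood endothelial classes of each library in which they were seen. In WT cells it stood at 1641 CPM (95% interval 1587 to 1696) in aCap-like, 1713 in Esm1-led, 1878 (1829 to 1927) in gCap-like, 2022 in arterial-like and 3678 (3479 to 3886) in venous-like cells. Venous-like cells stood above every other class. The KO library gave 1847 in aCap-like, 2162 in Esm1-led, 2464 in gCap-like, 2788 in arterial-like and 3932 in venous-like cells, the same order, and 813 (747 to 884) in the KO-only cluster, the lowest of the blood endothelial classes. Neighbours in this order whose intervals overlapped were Esm1-led and aCap-like cells and gCap-like and arterial-like cells in WT, and each adjacent pair up to arterial-like cells in KO, while venous-like cells stood apart in both. In the KO-only cluster the intervals of Klf2 and of the next gene, Klf6 (683 to 814), overlapped. Venous-like over gCap-like cells was 1.96-fold for Klf2 in WT (95% interval 1.84 to 2.08) and 1.60-fold in KO (1.45 to 1.76). Klf2 made up 39.4% of the UMIs of the 8 genes in WT gCap-like cells and 56.6% in WT venous-like cells.

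Klf4 followed a different order. In WT cells it was highest in venous-like (859 CPM) and aCap-like cells (831), lower in gCap-like (649) and arterial-like cells (559), and lowest in the Esm1-led class (408); the intervals of the venous-like and aCap-like values overlapped. The ratio of Klf4 to Klf2 UMIs accordingly ran from 0.234 (0.205 to 0.265) in WT venous-like cells to 0.506 (0.478 to 0.536) in WT aCap-like cells. In the KO library it ran from 0.305 in venous-like to 0.692 in aCap-like cells, and in each of the 5 classes the KO value was the larger, though the intervals overlapped in arterial-like and venous-like cells.

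**Figure D1:**
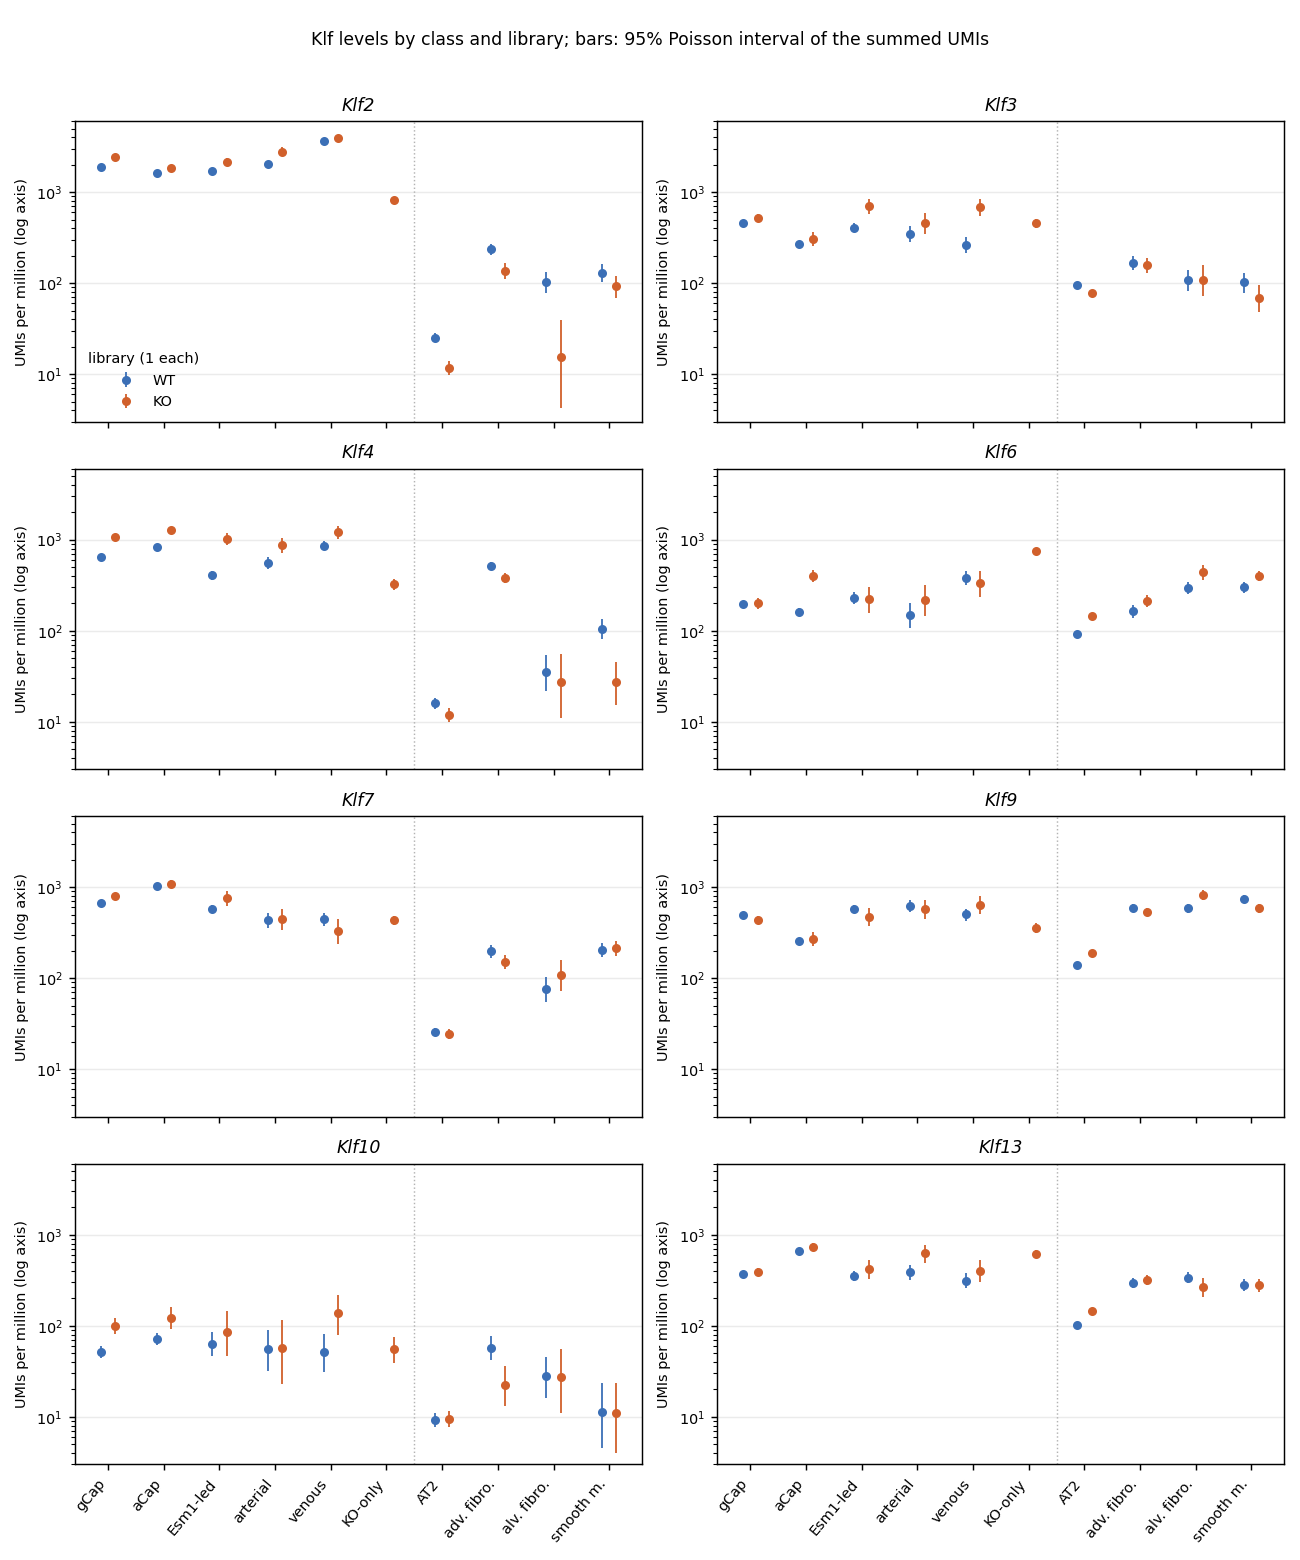
Level of each gene in CPM (vertical log axis) in 6 endothelial classes (left of the dotted line) and 4 other classes, for the WT and KO libraries (1 each), with bars for the 95% Poisson interval. Klf2, Klf4 and Klf7 stand 10-fold or more above AT2-like cells in every endothelial class, Klf9 does not, and the KO-only cluster is the lowest endothelial class for Klf2 and Klf4 and the highest for Klf6.

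The remaining members were spread over the vessel types in their own ways. Klf7 peaked in aCap-like cells, at 1025 CPM in WT and 1083 in KO, against 675 and 805 in gCap-like cells. Klf13 did likewise, at 660.4 and 736 CPM in aCap-like against 366 and 394 in gCap-like cells. Klf3 and Klf9 were low in aCap-like cells, a low that WT venous-like cells shared for Klf3 (265 CPM): Klf3 stood at 267 and 306 CPM against 456 and 524 in gCap-like cells, and Klf9 at 254 and 271 against 494 and 436. The 2 capillary types thus differed in opposite directions for these pairs. Of the 8 genes, aCap-like over gCap-like calls in WT were Klf7 and Klf13 higher and Klf3 and Klf9 lower, where 24.0% of genes were called, and in KO Klf6 and Klf13 higher and Klf3 and Klf9 lower, where 15.4% were. The KO ratio of Klf7 was 1.35 (1.20 to 1.51), short of the call. With every cell thinned to 1500 UMIs, the 4 WT calls held and the KO calls fell to Klf13 and Klf3.

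Klf6 ran in the WT vessel classes from 149 CPM in arterial-like to 383 in venous-like cells, and Klf10 was the scarcest member there, at 51.6 to 71.6 CPM. Venous-like over gCap-like cells gave Klf2 and Klf6 higher and Klf3 and Klf7 lower in WT (19.7% of genes called), and Klf2 and Klf6 higher and Klf7 lower in KO (10.6% called). Klf7 was lower in arterial-like than in gCap-like cells in both libraries (0.643 in WT, 13.6% called; 0.554 in KO, 8.47% called), and Klf13 was higher there in KO. In the Esm1-led class Klf4 alone was lower than in gCap-like cells in WT (0.630, interval 0.555 to 0.713; 5.62% called), and no member was called in KO (3.51% called). In thinned cells 1 KO venous-like call was left, Klf2, no WT arterial-like call and, in KO arterial-like cells, that of Klf13. KO arterial-like and venous-like values rest on 20 and 14 cells.

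Klf2 and Klf4 were also read in single cells. Each cell was thinned to 1500 UMIs, and 51 WT and 11 KO gCap-like cells with fewer were left out. A Klf2 UMI was found in 85.0% of WT gCap-like cells (exact 95% interval 82.2 to 87.5) and in 89.7% of KO ones (84.7 to 93.5). Without thinning these shares were 95.5% and 96.3%. AT2-like cells, which served as the measure of free RNA, gave 4.01% and 2.04% thinned (13 and 46 cells left out) and 31.4% and 15.7% unthinned, at median depths of 17656 and 19657 UMIs against 3855 and 4969 in gCap-like cells. Klf4 was found in 54.8% of thinned WT gCap-like cells (51.1 to 58.5) and 75.5% of KO ones (69.0 to 81.2), against 2.76% and 2.78% of AT2-like cells; unthinned, the gCap-like shares were 76.7% and 89.3% and the AT2-like shares 20.7% and 16.7%. Both genes were seen in the same gCap-like cell in 47.8% of WT cells (44.1 to 51.5) and 69.1% of KO cells (62.3 to 75.4). The product of the shares of each gene was 46.6% in WT and 67.7% in KO, inside those intervals, so joint detection was at the level the single shares give. In the KO-only cluster both were seen in 21.8% (14.8 to 30.4) and neither in 42.9%. The product there was 15.0%, just inside that interval. In WT AT2-like cells both were seen in 0.627% (0.204 to 1.46), above the product of 0.111%, and in none of the KO ones. The source of this excess was not tested.

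**Figure D2:**
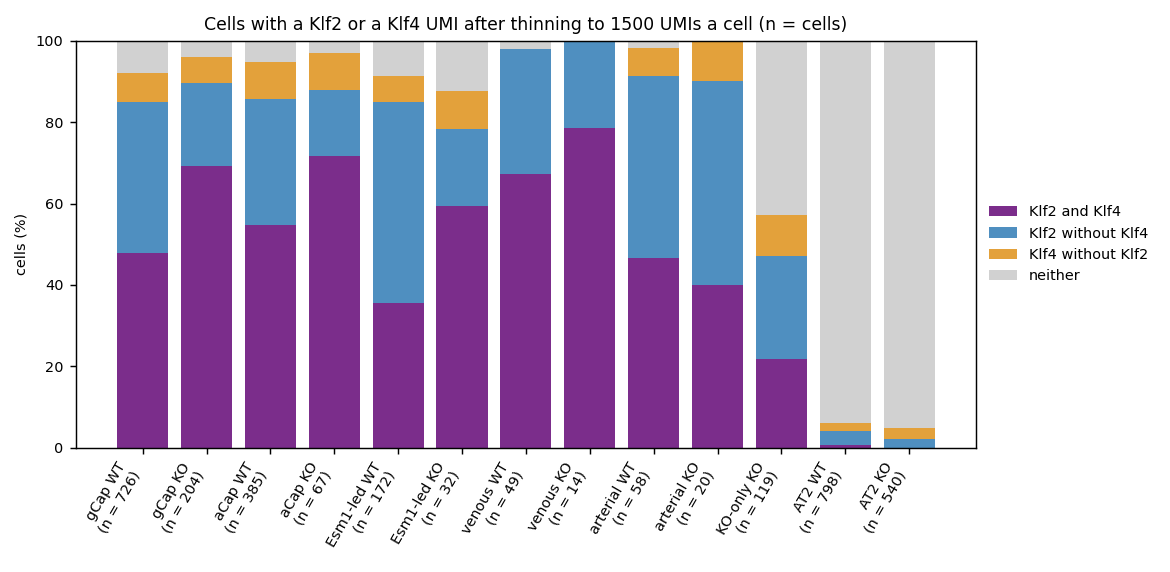
Share of cells (vertical axis, percent) with a UMI of both Klf2 and Klf4, of 1 of them or of neither, after thinning each cell to 1500 UMIs, by class and library with the number of cells. Among gCap-like cells, those with both make up 47.8% in WT and 69.1% in KO, against 21.8% of the KO-only cluster and under 1% of AT2-like cells.

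The comparison of the KO with the WT library within a class asks whether the levels of these genes went with the genotype. In gCap-like cells Klf4 stood at 649 CPM (620.4 to 678) in WT and 1080.2 (1018 to 1145) in KO, a ratio of 1.67 (1.55 to 1.79). Klf10 stood at 51.6 (43.8 to 60.3) and 99.3 (81.1 to 120.5), a ratio of 1.93 (1.49 to 2.49). These 2 genes were called higher and none lower, where 1.55% of 8504 genes were called higher, 2.72% lower and 4.27% either way. Klf2 was 1.31-fold (1.25 to 1.38) higher, Klf7 1.19-fold and Klf3 1.15-fold, all short of 1.5-fold, while Klf6 (1.03) and Klf13 (1.08) had intervals that included 1 and Klf9 was at 0.882 (0.792 to 0.980). The median log2 ratio of the 8 genes was 0.23, against -0.02 for all genes tested.

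The gCap-like class consisted of 2 clusters, examined separately after the data had been seen. In cluster 1 (402 WT and 114 KO cells) Klf4 stood at 571 CPM in WT and 1094 in KO, a ratio of 1.92 (1.74 to 2.11), where 1.67% of genes were called higher, 2.60% lower and 4.27% either way. In cluster 2 (375 and 101 cells) it stood at 763 and 1059.9, a ratio of 1.39 (1.24 to 1.56), which was not called (1.36% higher, 1.82% lower, 3.17% either way). Klf10 was called in both, at 1.95 and 1.89. The difference in Klf4 between the libraries was thus larger in the cluster whose WT level was lower. Among KO gCap-like cells, 125 had Y-linked transcripts and no Xist. Against all WT cells these gave 1.65 (1.51 to 1.81) for Klf4 and 1.72 (1.25 to 2.35) for Klf10 (1.80% of genes called higher, 2.29% lower, 4.09% either way). Of the WT gCap-like cells 709 had Xist only and none had Y-linked transcripts, so this comparison does not separate sex from genotype. Only 3 KO gCap-like cells had Xist only, too few for a comparison within that kind. The 5 gCap-like KO cells with most Klf4 held 9.11% of its UMIs, and both calls held without the 5 highest cells of each library.

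In aCap-like cells 3 members were called higher and none lower, where 1.78% of 8326 genes were called higher, 1.80% lower and 3.58% either way. Klf6 stood at 161 CPM (145 to 179) in WT and 396 (339 to 459.8) in KO, a ratio of 2.45 (2.03 to 2.95). Klf4 stood at 831 and 1278, a ratio of 1.54 (1.40 to 1.69), and Klf10 at 71.6 and 123, a ratio of 1.71 (1.23 to 2.35). The KO side was 72 cells, and the 5 highest held 31.0% of the Klf6, 20.7% of the Klf4 and 37.7% of the Klf10 UMIs. Without the 5 highest cells of each library Klf6 was still called and Klf4 and Klf10, at log2 ratios of 0.48 and 0.47, were not. That setting left out 5 of 72 KO but 5 of 400 WT cells, chosen by the gene itself, so it lowers the KO level more. In thinned cells Klf4 and Klf6 were called and Klf10 was not. A Klf6 UMI was found in 20.3% of thinned WT aCap-like cells (16.4 to 24.6) and 43.3% of KO ones (31.2 to 56.0), with 15 and 5 cells left out; unthinned, the shares were 54.8% and 76.4%. In AT2-like cells the thinned shares of Klf6 were 11.5% and 19.6% and the unthinned ones 60.9% and 71.7%.

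The smaller endothelial classes, with 14 to 35 KO cells, are given side by side. In the Esm1-led class Klf4 stood at 408 CPM (363 to 458) in WT and 1013 (865 to 1180.4) in KO, a ratio of 2.48 (2.04 to 3.01), and was called higher under all 7 alternatives that gave a value. Klf3 was called higher there too, at 408 and 700.2 CPM (1.71, 1.37 to 2.14; 1.47% of genes called higher, 1.14% lower and 2.61% either way), under 5 of the 7 alternatives, with a log2 ratio down to 0.09. No Esm1-led class formed under the looser cell filter (200 genes, 20% mitochondrial UMIs), in 1-step clustering, at resolution 0.5 or with doublets kept. Those settings therefore say nothing of these calls. In arterial-like cells Klf4 (559 and 875) and Klf13 (389 and 624) were called higher, where 1.25% of genes were called higher, 0.864% lower and 2.12% either way, but these calls held under only 4 and 3 of 10 alternatives. In venous-like cells Klf3 was called higher (265 and 685 CPM; 1.28% of genes called higher, 1.15% lower, 2.43% either way) and Klf4, at 859 and 1201, had a ratio of 1.40 (1.14 to 1.71). Klf10 there, at 51.9 and 137 CPM from 18 and 17 UMIs, had a ratio of 2.64 (1.28 to 5.43) and was not called either. Of 9 alternatives, 7 called Klf3, 5 called Klf4 and 5 called Klf10 higher; 5 KO cells held 69.4% of the Klf3 UMIs. Without the 5 highest cells no member was called in venous-like cells. That setting left out 5 of 14 KO but 5 of 53 WT cells, chosen by the gene itself, so it lowers the KO level more. In these 5 blood endothelial classes the interval of the Klf4 ratio was above 1, and Klf2 was at 1.07 to 1.38. The lymphatic-like cells went the other way for Klf4, with 12 of 15048 UMIs in the 3 WT cells and 5 of 72659 in the 7 KO cells.

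**Figure D3:**
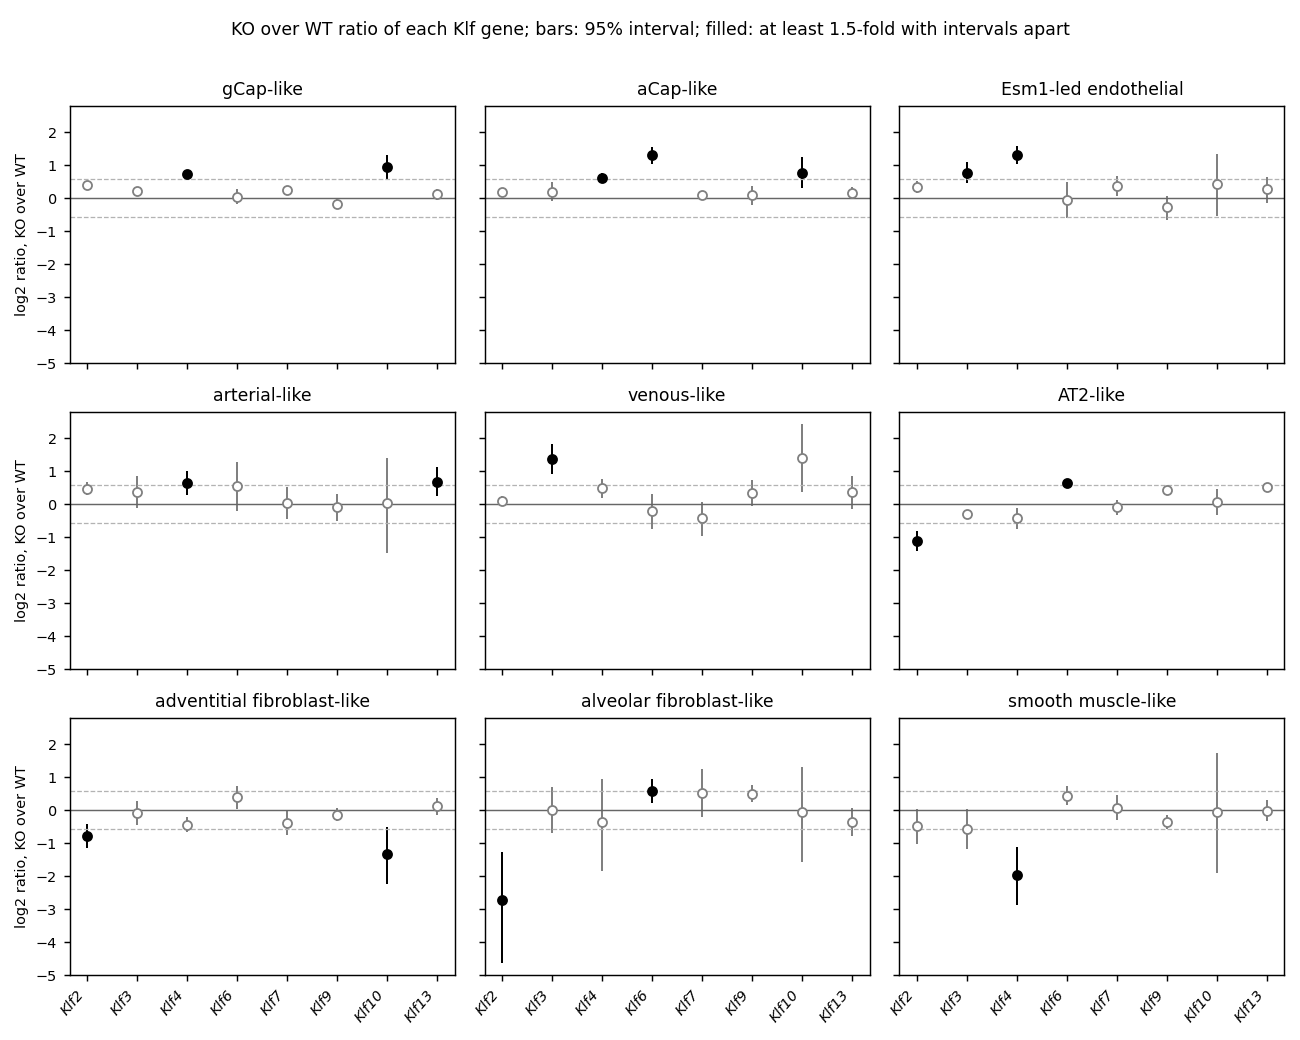
Log2 ratio of KO over WT (vertical axis) for each gene (horizontal axis) in 9 classes, with bars for the 95% interval, dashed lines at 1.5-fold and filled points for called genes. Klf4 is above 0 in the 5 endothelial classes shown and below 0 in the 4 others, and Klf6 stands out in aCap-like cells.

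Genes that are induced while tissue is dissociated differed between the libraries as well. Of 19 measured genes of the immediate early and dissociation list, 1 was called higher and 8 lower in KO gCap-like cells, with a median log2 ratio of -0.48 against -0.02 for all genes, of which 1.55% were called higher and 2.72% lower. The early transcription factor Egr1 was at 197 CPM in WT and 16.4 in KO cells, its fellow Fos at 86.7 and 12.5, and the heat shock genes Hspa1a and Hspa1b at 137 and 14.5 and at 96.2 and 12.5. Fosl2 was the gene called higher, at 21.0 and 45.3, and is named after its values were seen. Klf2, Klf4, Klf6 and Klf10 are themselves known as early-response genes, and the part of dissociation in their levels was not tested. Free RNA of AT2 cells differed too: the 9 AT2 markers summed to 5094 CPM in WT and 2671 in KO gCap-like cells, and the erythroid and platelet markers to 892 and 66.5. The part of free RNA was not tested. The calls of Klf4 and Klf10 in gCap-like cells were the same in cells thinned to 1500 UMIs.

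The route by which flow reaches Klf2 and Klf4 was measured in the same cells, where 1.55% of all genes were called higher, 2.72% lower and 4.27% either way. Of 18 measured genes of flow sensing and of the MEK5, ERK5 and MEF2 route, 1 was called lower: Hdac5, a class II deacetylase that binds MEF2, at 48.6 CPM in WT and 21.2 in KO. Hdac4 stood at 40.7 and 25.1 and Mef2d at 46.6 and 61.7. None of 5 CCM complex genes was called, among them Heg1 (368 and 451) and Pdcd10 (122 and 143). None of 12 measured genes known to rise with Klf2 or Klf4 was called (median log2 ratio 0.11): S1pr1, a receptor for sphingosine-1-phosphate, stood at 1009 and 1348, Palmd at 187 and 265, Adamts1 at 216 and 286, and Nos3, the endothelial nitric oxide synthase, at 25.0 and 19.3. Of 5 measured genes known to fall with them, 1 was called lower, the Tie2 ligand Angpt2 at 60.4 and 32.8, while the endothelin gene Edn1 stood at 359.7 and 327, Icam1 at 99.8 and 74.3 and Ace at 1321 and 1234.

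Lists around the other members were small. In gCap-like cells, with the same share of 4.27% of all genes called, 1 of 6 TGF-beta response genes was called higher, the matricellular gene Ctgf at 42.0 CPM in WT and 113 in KO, while Skil stood at 160.0 and 229.5 and Tgfb1 at 135 and 161. Of 11 glucocorticoid and clock genes, Sgk1 was called higher (405 and 674) and Nr1d1, a clock repressor, lower (40.4 and 10.6); Per1 stood at 101 and 149. None of 6 partners of Klf3 and Klf13 was called, among them Sin3a (42.4 and 58.8) and Ctbp2 (70.6 and 84.9). Acvrl1 stood at 1315 CPM (1275 to 1357) in WT and 1266 (1199 to 1337) in KO gCap-like cells. Counts of 3′ ends do not show whether a transcript lacks internal exons, so this is no check of a deletion.

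The KO-only endothelial cluster carried all 12 endothelial markers at 10 CPM or more, summing to 14317 CPM against 12006 to 26233 in the other blood endothelial classes of the KO library, and its leading genes against the other endothelial clusters were Apln, Igfbp3 and Peg3. Against the other 356 KO blood endothelial cells, Klf6 was called higher and Klf2, Klf4, Klf7 and Klf10 lower, where 7.37% of 8368 genes were called higher, 8.32% lower and 15.7% either way. Clustering used other genes of the same cells, so these ratios describe the cluster and test nothing.

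Klf2 stood at 813 CPM (747 to 884) inside the KO-only cluster and 2414 (2345 to 2486) outside it, a ratio of 0.337 (0.308 to 0.368), and Klf4 at 322 (281 to 367) and 1114 (1067 to 1163), a ratio of 0.289 (0.250 to 0.332). Klf6 stood at 746 (683 to 814) and 258 (235 to 282), a ratio of 2.90 (2.55 to 3.29). Both flow factors and Klf6 thus differed in opposite directions. Klf7 was at 0.538 (0.474 to 0.609) and Klf10 at 0.536 (0.368 to 0.763), while Klf3 (0.925), Klf9 (0.850) and Klf13 (1.24) were not called. Low Klf7 and Klf10 were not particular to the cluster. Its Klf7 level of 436 CPM was below KO aCap-like (1083), gCap-like (805) and Esm1-led cells (755), near arterial-like (446) and above venous-like cells (330.4). Its Klf10 level of 55.4 was near arterial-like cells (56.7), with 86.0 to 137 in the remaining blood endothelial classes. Set against WT blood endothelial cells, Klf6 was at 3.81 (3.44 to 4.23), Klf2 at 0.432, Klf4 at 0.467 and Klf7 at 0.575, all called (8.99% of genes called higher, 12.3% lower, 21.3% either way), and Klf10 at 0.928 was not. As a share of the 8 genes' UMIs, Klf6 made up 19.6% in the cluster and 3.36% in KO gCap-like cells. A Klf6 UMI was found in 62.2% of its thinned cells (52.8 to 70.9; 84.8% unthinned, 6 cells left out), against 19.6% of KO AT2-like cells.

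The cluster also differed in the sex of its cells: 59 carried Xist only and 45 Y-linked transcripts only, against 13 and 218 of the other KO blood endothelial cells. Comparison within each kind was therefore made. Among cells with Y-linked transcripts only, Klf2 stood at 505 CPM inside and 2384 outside (0.212, 0.175 to 0.254), Klf4 at 254 and 1160.4 (0.219), and Klf6 at 796 and 268 (2.97, 2.47 to 3.55), and the same 5 genes were called (6.96% of genes called higher, 6.40% lower, 13.4% either way). Among cells with Xist only, Klf2 stood at 1136 and 1328 (0.855, 0.681 to 1.08) and Klf4 at 402 and 614 (0.655, 0.463 to 0.944), neither called, Klf6 at 681 and 271 (2.51, 1.57 to 4.24) and Klf9 at 287 and 114 (2.51) were called higher and Klf7 at 515 and 914 (0.563) lower (1.74% of genes called higher, 2.94% lower, 4.68% either way). The Klf6 and Klf7 differences were therefore called in cells of either kind, and those of Klf2 and Klf4 only in the Y-linked kind, where the difference between kinds was not tested. The 13 outside cells with Xist only included 7 aCap-like and 3 gCap-like cells, the classes with the highest Klf7 of the KO library (1083 and 805 CPM). The Klf7 ratio therefore also depends on the mix of classes outside. In the cluster, 5 cells held 26.9% of the Klf2 UMIs, and all 5 calls held without the 5 highest cells. That setting left out 5 of 125 cells inside but 5 of 356 outside, so it tends to lower the inside level more and favours the lower calls.

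**Figure D4:**
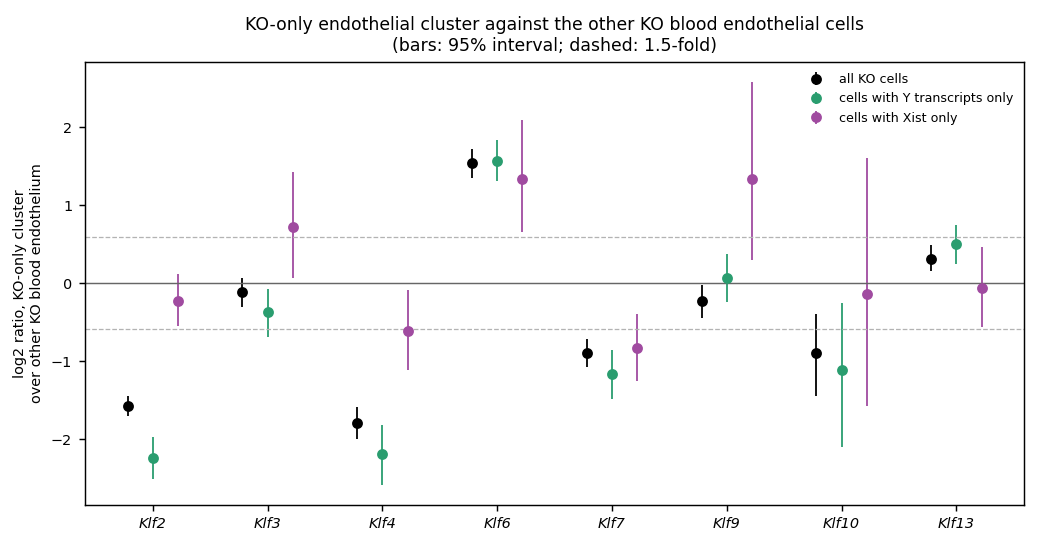
Log2 ratio (vertical axis) of each gene (horizontal axis) in the KO-only cluster over the other KO blood endothelial cells, for all cells, for cells with Y-linked transcripts only (45 against 218) and for cells with Xist only (59 against 13), with bars for the 95% interval. Klf6 is above and Klf7 below 1.5-fold or its inverse in all 3 sets, while Klf2 and Klf4 lie near -2 in Y-linked cells and nearer 0 in cells with Xist only.

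Genes downstream of the flow factors also differed between the cluster and the other KO endothelium. The list values here and in the next paragraph pool cells with Xist and with Y-linked transcripts, whose shares differed inside and outside the cluster. They do not show whether cells of each kind shared these differences. Of 13 measured genes known to rise with Klf2 or Klf4, none was called higher and 8 lower, with a median log2 ratio of -0.78 against -0.06 for all genes, of which 7.37% were called higher, 8.32% lower and 15.7% either way. The 8 were Thbd, the receptor that turns thrombin to anticoagulation, at 211 CPM inside and 1251 outside, the water channel Aqp1 (392 and 1584), the connexin Gja4 (8.74 and 99.5), Sema3g (168 and 402), Icam2 (530.5 and 1040.4), Slc9a3r2 (497 and 853), Adamts1 (86.0 and 218) and Palmd (115 and 191). S1pr1 (1383 and 1341) and Nos3 (27.7 and 30.3) were not called. Of 6 genes known to fall with the flow factors, Angpt2 (297 and 26.1) and Edn1 (1004 and 297) were called higher and Ace (698 and 1269), Kitl (176 and 816) and Icam1 (43.7 and 154) lower, against the same shares, so the list did not go one way. All genes of these lists beyond the 4 with the largest ratio in gCap-like cells were named here after their values were seen.

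The other lists are read against the same 7.37% higher and 8.32% lower of all genes. Of 18 flow-route genes, Pecam1 was called higher (2304 CPM inside and 1507 outside) and Kdr (329 and 832), Mef2a (213 and 329) and Hdac7 (176 and 314) lower. None of 5 CCM complex genes was called. Of 8 TGF-beta response genes, Tgfbi (198 and 2.66), Ctgf (1097 and 161) and Tgfbr2 (165 and 95.3) were called higher and Smad7 (86.0 and 641) and Skil (51.0 and 217) lower. Acvrl1 itself stood at 414 (367 to 465) inside and 1318 (1267 to 1371) outside. It was not among the list genes left out of the clustering. Of 19 genes of the dissociation list 1 was called higher, Fosl2 (194 and 41.0), and 7 lower, among them Jun (781 and 1539.5) and Hspa1a (1.46 and 98.4); Egr1 (55.4 and 38.3) and Fos (35.0 and 18.6) were not called. The part of dissociation in the cluster's Klf levels was not tested. Of 10 glucocorticoid and clock genes, Fkbp5 (99.1 and 42.0) and Per2 (74.3 and 15.4) were called higher and Sgk1 (262 and 507) and Tsc22d3 (294 and 457) lower, and none of 6 partners of Klf3 and Klf13 was called. Klf15 stood at 20.4 inside and 5.85 outside.

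Taking all endothelial-like cells together mixed these patterns. Klf6 was then the only member called in KO over WT, at 196 and 387 CPM (1.98, 1.82 to 2.15; 3.98% of genes called higher, 5.13% lower, 9.10% either way), and Klf2 stood at 1883 and 1946 (1.03, 1.00 to 1.07). Without the KO-only cluster and the lymphatic-like cells, an alternative added after the data were seen, Klf6 was at 1.32 and not called, Klf2 at 1.28, and Klf4 (1.62, 1.53 to 1.70) and Klf10 (1.73, 1.45 to 2.06) were called higher (1.75% higher, 3.30% lower, 5.05% either way). The members called differed between these comparisons.

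Outside the endothelium each member was read against free endothelial RNA, taken as the level of 12 endothelial markers as a percentage of their level in all endothelial-like cells of that library. In AT2-like cells the median of these markers was 0.885% in WT (range 0.457 to 8.31) and 0.457% in KO (0.196 to 6.62). The top of the range was 1 marker, Esam. Klf2 (1.34% and 0.600%) and Klf4 (2.31% and 1.35%) lay within those ranges and cannot be told apart from free RNA there. Klf7 (3.42% and 3.49%) lay within them too but further above the medians, at 25.9 and 24.3 CPM, while the summed endothelial markers were 241 and 142 CPM. Klf6 (46.8% and 37.2%), Klf9 (32.6% and 47.6%), Klf3 (25.8% and 16.6%), Klf13 (22.1% and 28.2%) and Klf10 (15.3% and 10.7%) lay above them. All 8 members were called higher in endothelial-like than in AT2-like cells in both libraries, where 56.0% of WT and 52.6% of KO genes were called higher and 71.6% and 68.2% either way, with ratios in WT from 2.14 for Klf6 to 74.4 for Klf2 and in KO from 2.10 for Klf9 to 167 for Klf2.

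Adventitial fibroblast-like cells, which sheathe the larger vessels, had their own Klf profile. Klf9 led it at 590.1 CPM in WT and 537 in KO, and Klf4 followed at 516 (468 to 569) and 379 (336 to 426), so that Klf4 UMIs exceeded Klf2 UMIs 2.19-fold (1.84 to 2.61) and 2.77-fold (2.20 to 3.50), the reverse of every endothelial class. Klf4 stood at 74.9% and 43.1% of its endothelial level, above the highest endothelial marker (Tek, 11.9% and 7.51%). Klf2 stood at 12.5% and 7.04%, near that marker. A Klf4 UMI was found in 42.6% (30.7 to 55.2) and 40.8% (27.0 to 55.8) of thinned cells, with 0 and 1 cells left out, and in 92.6% and 84.0% unthinned, at median depths of 12169.5 and 13780.0 UMIs; the AT2-like shares and depths are those given above. Alveolar fibroblast-like cells held little Klf4 (35.3 and 27.2 CPM). AT2 markers made up 7.14% of their UMIs in WT and 2.00% in KO, whose part in their Klf levels was not tested.

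Klf9 was the leading member in smooth muscle-like and alveolar fibroblast-like cells too. It also led in AT2-like cells (140.4 CPM in WT and 190.1 in KO) and in pericyte-like cells (536 and 621). In smooth muscle-like cells Klf9 stood at 749 CPM (682 to 820.0) in WT and 585 in KO, the highest WT level of Klf9 in any class shown, though its interval met that of arterial-like cells (618, 531 to 716), and Klf6 at 299.7 and 402. Against these cells, all endothelial-like cells of WT were lower for Klf9 (0.575, 0.521 to 0.636) and Klf6 (0.654) and higher for the other 6, where 41.5% of genes were called; in KO the same 6 were higher and neither Klf9 nor Klf6 was called (41.1%). In alveolar fibroblast-like cells Klf9 stood at 586 and 825 CPM and Klf6 at 293 and 439.8. In the 82 WT leukocyte-like cells that passed the CD45-negative sort Klf6 led at 408 CPM, and in the 25 KO ones at 530.2.

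**Figure D5:**
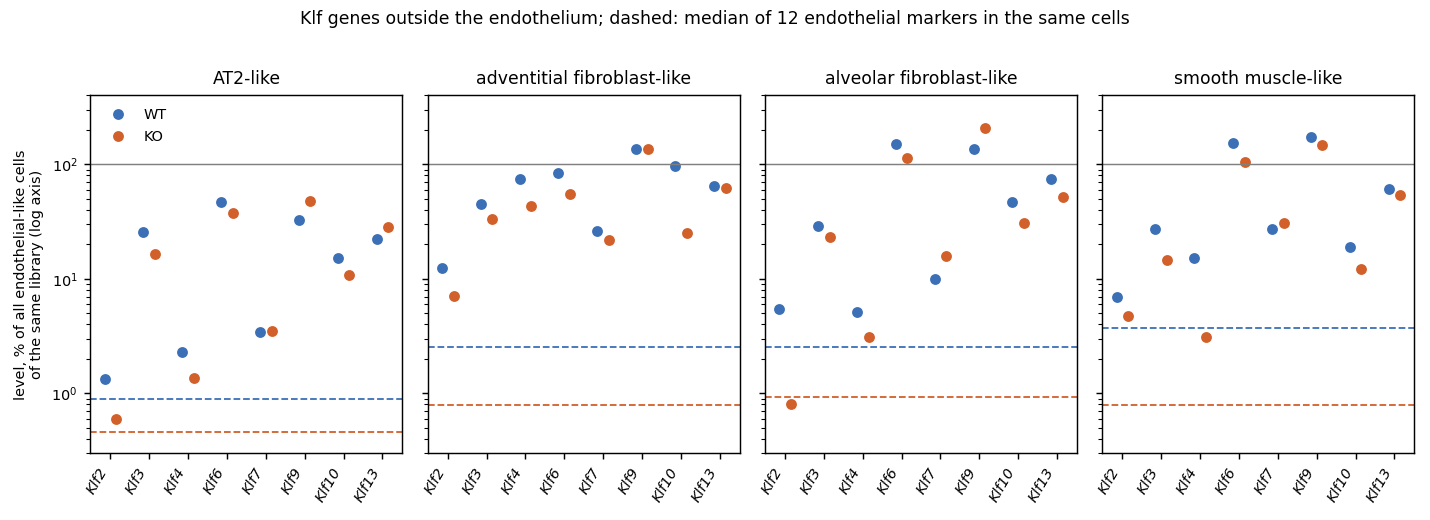
Level of each gene in 4 non-endothelial classes as a percentage (vertical log axis) of its level in all endothelial-like cells of the same library, WT and KO (1 library each); dashed lines give the median of 12 endothelial markers in the same cells. Klf9 is above 100 in fibroblast-like and smooth muscle-like cells, Klf4 is highest in adventitial fibroblast-like cells, and Klf2 is the lowest member in AT2-like and adventitial fibroblast-like cells.

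KO over WT differences outside the endothelium had other members and directions. In adventitial fibroblast-like cells Klf2 (236 and 137 CPM; 0.580, 0.451 to 0.741) and Klf10 (57.5 and 22.6; 0.393, 0.211 to 0.699) were called lower and none higher, where 3.63% of genes were called lower, 2.74% higher and 6.37% either way. The summed endothelial markers were 623 CPM in WT and 363 in KO in the same cells, and their part in the Klf2 value was not tested; without the 5 highest cells of each library, which held 48.1% and 74.8% of the Klf2 UMIs, the log2 ratio of Klf2 was -1.74 in place of -0.79. Klf10 rests on 46 and 17 UMIs and was not called in thinned cells. In smooth muscle-like cells Klf4 was called lower (105 and 27.2 CPM; 0.258, 0.137 to 0.457), where 3.76% were called lower, 2.18% higher and 5.94% either way. Here 5 WT cells held 70.8% of the 65 Klf4 UMIs, the summed endothelial markers were 682 and 205 CPM, whose part was not tested, and the call ended without the 5 highest cells, at 1000 genes or more, and in 1-step clustering.

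In AT2-like cells Klf6 stood at 91.8 CPM (86.8 to 97.0) in WT and 144 (137 to 152) in KO, a ratio of 1.57 (1.46 to 1.69), and was called higher; Klf2 was called lower (25.3 and 11.7), both out of 7 members with 10 CPM or more, where 1.84% of genes were called higher, 2.34% lower and 4.18% either way. Klf6 was at 0.53 on the log2 scale in KO cells with Y-linked transcripts only, which is not called. The Klf2 call was lost in thinned cells and with the mean of single-cell CPM, and the summed endothelial markers were 241 and 142 CPM in these cells, whose part was not tested. In alveolar fibroblast-like cells, with 36 KO cells, Klf2 (102 and 15.6 CPM) was called lower and Klf6 (293 and 439.8; interval of the ratio 1.17 to 1.92) higher, where 4.48% of genes were called higher, 4.48% lower and 8.95% either way, and the endothelial markers were 473 and 136 CPM. The KO class held 256910 UMIs in all, so its Klf2 level rests on few UMIs. As a percentage of the endothelial level, Klf2 lay within the range of the endothelial markers in KO and above it in WT. The part of free endothelial RNA in the Klf2 values was not tested. Klf2 was called lower under all 8 alternatives that gave a value, Klf6 higher under 1 of 10 (log2 ratio -0.10 to 0.89). Klf3, Klf7, Klf9 and Klf13 were called in neither direction in the 4 classes as computed here. Under alternatives Klf13 was called lower in alveolar fibroblast-like cells in 4 of 10, and 1 alternative each called Klf13 higher in AT2-like, Klf9 higher in alveolar and Klf7 lower in adventitial fibroblast-like cells.

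Relatives outside the 8 marked the borders of the family in this tissue. Klf5, an epithelial member, stood at 61.8 CPM in WT and 72.4 in KO AT2-like cells and at 0.985 and 0 in gCap-like cells. Klf11 was an aCap-like gene, at 108 and 104 CPM against 22.0 and 22.2 in gCap-like cells. Klf15, a glucocorticoid-responsive member of muscle and fat, stood at 47.0 and 59.7 in smooth muscle-like, 51.3 and 35.9 in adventitial fibroblast-like and 10.8 and 4.82 in gCap-like cells. Klf12 reached at most 3.26 CPM in WT aCap-like cells among the classes measured for it. The general factors Sp1 (119.9 and 107 CPM) and Sp3 (112 and 85.8) were not called in gCap-like cells.

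Across 17 sums of class and library, the levels of 3454 genes were compared with those of Klf2, Klf4 and Klf6 by Pearson correlation of log2 CPM. These sums share libraries, free RNA and cell types, so the values are descriptions. Klf2 was most like Eng (0.98), Clec2d (0.98), Acvrl1 (0.97), Aqp1 (0.97) and Dusp23 (0.97). Klf4 was most like Ly6a (0.93), Aqp1 (0.92), Lmo2 (0.90), Lysmd2 (0.90) and Rara (0.89). Klf6 had no close match, with Hist1h1c (0.74), Mrpl15 (0.73), Tmem165 (0.72), Pnrc2 (0.70) and Dync1li1 (0.70) leading. Among the members themselves, Klf2 correlated with Klf7 at 0.91, with Klf4 at 0.89 and with Klf3 at 0.88, and Klf6 with none of the others above 0.38.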

How the data were processed

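Single-cell RNA was measured in 1 WT and 1 KO library. The authors deposited UMI counts, not normalized, which Cell Ranger 3.0.1 produced against mm10 per the submitters' processing notes; filters before deposit are not given in the sources used here. Cells needed 500 genes or more and no more than 10% mitochondrial UMIs (15.1% of WT and 30.5% of KO barcodes were over that limit), and 37 WT and 12 KO doublets called by scrublet within scanpy 1.11.5 were left out. All cells were clustered with leidenalg 0.10.2 at resolution 1 (30 components, 20 neighbours) on 2000 variable genes, of which those among the 128 genes of the Klf lists were removed. They were then clustered again, leaving out as well the 2018 genes that differed between the libraries in some class. A cluster took a marker class where at least 3 markers stood 2-fold above the median of the other clusters and in 10% of cells; the class with most markers among the 10 leading genes was used. This scoring rule was settled after the first clusters were seen. A KO-only cluster had at least 90% KO cells. Counts were summed over the cells of each class in each library. Poisson intervals, conditional binomial intervals of ratios and Clopper-Pearson intervals of shares were exact at 95%. No count model was fitted, because each group has 1 library. The calling step was checked on simulated gCap-like sums that held counting error only. That check does not cover spread between cells or animals, or the smaller classes. Thinning drew 1500 UMIs per cell. Likeness used log2 of CPM plus 10 over genes averaging at least 50 CPM, in class sums of at least 50 cells. Named genes were the 8 members, the 5 most alike for Klf2, Klf4 and Klf6, up to 4 per list by size of the gCap-like ratio, Klf5, Klf11, Klf12, Klf15 and Acvrl1. The members and lists were chosen with earlier results of these data known. Alternatives are in the closing section; taking the gCap-like clusters separately and leaving the KO-only cluster out of the endothelium were added after seeing the data.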

Additional observations from a re-analysis of the deposited data

Results flagged for a closer look

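Klf4 was called in opposite directions in different classes. Its log2 ratio of KO over WT was 0.74 in gCap-like, 0.62 in aCap-like, 1.31 in Esm1-led and 0.65 in arterial-like cells, and -1.96 in smooth muscle-like cells. The difference between classes was not tested, since each group had 1 library. In smooth muscle-like cells 5 WT cells held 70.8% of the 65 Klf4 UMIs, and the call ended without the 5 highest cells. The arterial-like call held under only 4 of 10 alternatives.

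Klf10 was also called in both directions, with log2 ratios of 0.95 in gCap-like and 0.78 in aCap-like cells and -1.35 in adventitial fibroblast-like cells. This difference was not tested either. The adventitial fibroblast-like call rests on 46 WT and 17 KO UMIs and was lost in thinned cells, as was the aCap-like one.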

How the results depend on the processing

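No paired analysis was possible because each group had 1 library, and for the same reason no library could be left out. In gCap-like cells the 2 members called became 0 at a fold of at least 2 and 1 in cluster 2 alone, while of 12 alternatives at 1.5-fold Klf4 was called in 11 (log2 ratio 0.47 to 0.94) and Klf10 in 12 (0.78 to 1.02); resolution 0.5 formed no gCap-like and no adventitial fibroblast-like class. In aCap-like cells the 3 called became 1 without the 5 highest cells and 1 at a fold of at least 2. In AT2-like cells 2 became 1 with the mean of single-cell CPM and 1 at the higher fold. In adventitial fibroblast-like cells 2 became 1 when thinned and 1 at the higher fold. In smooth muscle-like cells 1 became 0 without the 5 highest cells, under the stricter cell filter (1000 genes, 5% mitochondrial UMIs), and with clustering in 1 step, and 2 with doublets kept. In the KO-only cluster 5 became 3 in cells with Xist only, and neither that filter nor resolution 0.5 formed such a cluster. Thinning took the class comparisons from 1 to 0 (arterial-like over gCap-like, WT), 2 to 1 (the same, KO), 4 to 2 (aCap-like over gCap-like, KO) and 3 to 1 (venous-like over gCap-like, KO). For all endothelial-like cells the count was 2 in place of 1 without the KO-only cluster and lymphatic-like cells. The other 86 counts of these comparisons stayed within 1.5 times. This compares how many members were called, not which ones. In AT2-like cells the Klf2 call was lost in thinned cells and the Klf6 call in KO cells with Y-linked transcripts only, though neither count moved by that much. In the small classes the counts of called members were less stable: they moved further than that in 3 of 9 alternatives in Esm1-led (1 to 3 called), 8 of 12 in arterial-like (0 to 2), 8 of 11 in venous-like (0 to 3) and 6 of 12 in alveolar fibroblast-like cells (0 to 3). Alternatives that formed no such class, or too few cells of it, are not counted. Of the log2 ratios, 1 reversed: Klf6 in alveolar fibroblast-like cells, at -0.10 without the 5 highest cells. Leaving out the 5 cells with most UMIs of a gene on each side takes a larger share of the smaller side. In the small classes that is the KO side, so its level tends to fall more. The causes were not tested. Median ratio scaling changed the share of higher calls in gCap-like cells from 36.4% to 32.3%, and the background there was 4.67% for genes of at least 50 CPM and 3.21% for genes with at least 3 UMIs. Depth limits the 4 small classes, each with under 50 KO cells and 7 to 17 KO UMIs of Klf10.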
